A study of Mus musculus with 24 samples.

Results

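Trp53, which encodes the tumor suppressor p53, and 9 genes that p53 is known to activate directly (Cdkn1a, Mdm2, Bbc3, Ccng1, Aen, Zmat3, Trp53inp1, Bax and Sesn1) were followed through 24 mouse RNA-seq libraries. These 10 genes were taken by symbol through their Ensembl identifiers, and each was present in the culture table of 35275 genes and in the tumor table of 54532 genes. They were chosen by symbol after the count and FPKM values of these libraries had been seen, all comparisons included, so their levels and differences below are a description. The counts of members past the edgeR threshold are set beside the share of all genes past it, and nothing is read from them. D2.1 and D2A1 are mammary tumor cell lines that both arose from D2 hyperplastic alveolar nodules of female BALB/c mice. D2.1 cells can enter long dormancy in the mouse, whereas D2A1 cells grow out, and the libraries compare the lines in culture and as tumors in hosts with or without adaptive immunity.

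The groups were D2.1 cells in culture (n = 3), D2A1 cells in culture (n = 3), D2.1 tumors from BALB/c mice (n = 4), D2A1 tumors from BALB/c mice (n = 4), D2.1 tumors from SCID-beige mice (n = 5) and D2A1 tumors from SCID-beige mice (n = 5). BALB/c is the strain of origin of the cells and has an intact immune system. SCID-beige mice carry the Prkdc scid and Lyst bg mutations, lack T and B cells and have defective natural killer cells, but still have macrophages, neutrophils and dendritic cells. For tumors, 1000000 cells were placed in the mammary fat pad of female mice aged 8 to 12 weeks, and tumors were collected at about 500 mm3. Collection was thus by size, and the sample labels give no time in the host, which may differ between the lines. The paper calls the D2.1 tumors later-stage. A line difference in tumors cannot be told apart from any difference in time in the host. No drug or genetic change of p53 was part of the design, and each cell line is a single line, so a difference between the lines belongs to that pair of lines.

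The p53 protein is a transcription factor that is held at a low level by Mdm2, an E3 ubiquitin ligase which marks it for degradation and is itself a p53 target. DNA damage, oncogene activity through the Cdkn2a product p19Arf, and ribosomal stress release p53 from this loop. Stabilized p53 then binds response elements in its target genes and can arrest the cell cycle, start apoptosis or change metabolism. Because p53 activity is set mostly by protein stability and modification, the Trp53 transcript alone does not measure it. Genes that p53 represses are mostly reached indirectly, through p21 (Cdkn1a) and the DREAM complex, which silences mitotic genes.

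The response element, the sequence that p53 binds, is shown first. It consists of a pair of adjacent 10-base elements, each built around a C and a G in fixed places. In RefSeq promoter windows on GRCm38.p6 (250 bases before to 50 bases after a transcription start), a match was taken as 20 bases without a spacer, with the C and G of both cores intact and at most 3 mismatches. The consensus reads the same on both strands, so 1 scan covers both. The mismatch limit was chosen after the sequences had been seen. In the sequences below, read 5′ to 3′ on the strand of the gene, capitals mark the matched 20 bases.
Cdkn1a: ttcagGAACATGTCTTGACATGTTCagccc
Ccng1: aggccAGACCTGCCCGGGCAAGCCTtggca
Bbc3: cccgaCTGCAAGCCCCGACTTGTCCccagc
Aen: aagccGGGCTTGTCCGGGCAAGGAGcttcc
Sesn1: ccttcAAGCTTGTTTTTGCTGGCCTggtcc
Trp53: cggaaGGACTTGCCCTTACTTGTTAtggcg

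The Cdkn1a stretch lies at chr17:29090923-29090952 on the plus strand, and the Ccng1 stretch at chr11:40755457-40755486 on the minus strand. Their matches begin 51 and 195 bases before the transcription start of the window that holds them, and each differed from the consensus at 1 of 20 bases. The other 4 matches each had 3 mismatches. They lie at chr7:16309481-16309510 (Bbc3), chr7:78895932-78895961 (Aen), chr10:41887261-41887290 (Sesn1) and chr11:69580279-69580308 (Trp53), all on the plus strand. Of the members, 8 had a promoter window and 6 of these (75%), Trp53 among them, held a match. This stands against 441 of 27025 genes (1.63%) in all and 4 of 30 other direct p53 targets with a window (13.3%). A gene counted if any of its windows held a match, and further windows of Cdkn1a, Bbc3 and Sesn1 held none. Bax and Mdm2 had no match within their windows, and Zmat3 and Trp53inp1 had no window in the table used. A match is a description of the letters in the window and does not show binding.

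Library totals were 16837260 to 24818234 counts in culture and 13566949 to 18355153 counts in tumors, so that 3 counts correspond to 0.121 to 0.221 CPM (counts scaled to a common library total of 1000000). Such a floor covers counting error only. The labels do not say that replicates came from separate cultures, so in culture the spread may be technical. Levels below are CPM after TMM scaling over all 24 libraries, which compares a gene between libraries, and differences are log2 fold changes from edgeR with their standard errors (SE). The tumor libraries are of whole tissue: the summed level of 8 leukocyte markers was 0.0618 to 1.28 CPM in culture and 190 to 752 CPM in tumors, where 4 to 8 of the 8 were above 3 counts in every library of a group and in culture 0 were. The summed level of 2 fibroblast markers was 377 to 1040 CPM in D2.1 tumors, 31.9 to 114 CPM in D2A1 tumors, 60.4 to 81.0 CPM in D2.1 cultures and 5.06 to 11.6 CPM in D2A1 cultures. The epithelial label held for Krt8, at 31.3 to 3650 CPM in every library, but Epcam was at 0.0618 to 0.758 CPM in culture. In tumors, fewer cells of a type and less RNA per cell cannot be told apart.

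Trp53 (chr11:69580359-69591873, plus strand, GRCm38) was far more abundant in D2.1 than in D2A1 in all 3 settings. In culture, it was at 2340, 2360 and 1680 CPM in the D2.1 replicates and at 119, 116 and 52.2 CPM in the D2A1 replicates. In BALB/c mice, D2.1 tumors had 2080, 2670, 2930 and 2470 CPM and D2A1 tumors had 52.8, 45.7, 58.8 and 66.8 CPM. In SCID-beige mice, the values were 2890, 3040, 2030, 2260 and 2620 CPM for D2.1 and 54.7, 54.1, 55.5, 38.6 and 40.1 CPM for D2A1. Every D2.1 library lay above every D2A1 library. The log2 difference of D2.1 from D2A1 was 4.48 ± 0.35 (SE) in culture, 5.48 ± 0.20 in BALB/c mice and 5.71 ± 0.21 in SCID-beige mice, which is 22.3-fold, 44.6-fold and 52.5-fold.

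**Figure D1:**
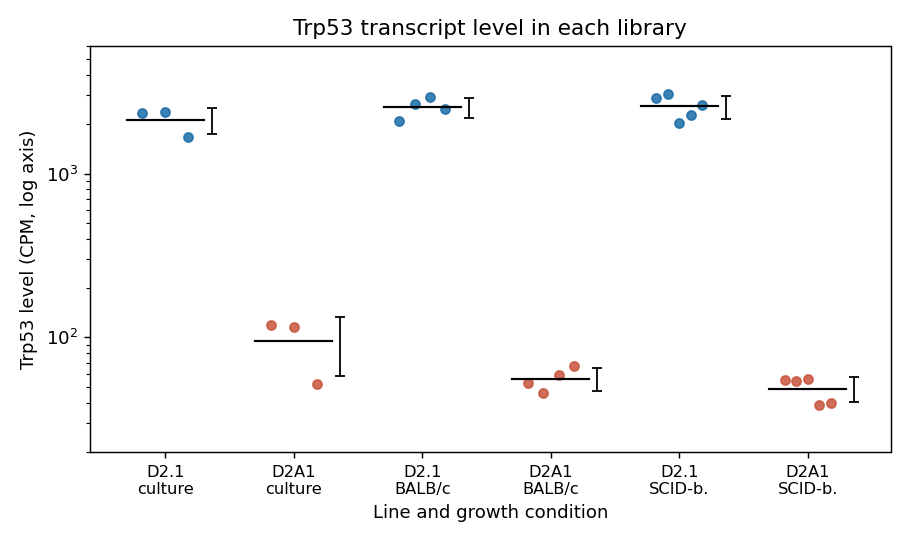
Trp53 in each of the 24 libraries, in CPM on a logarithmic axis, by group; points are libraries, lines are group means and bars beside them are 1 SD either side. The D2.1 libraries lie between 1680 and 3040 CPM and the D2A1 libraries between 38.6 and 119 CPM.

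In D2.1 libraries, Trp53 took 0.161% to 0.304% of all gene counts and stood between rank 14 and rank 33 of all genes by counts. In D2A1 libraries it took 0.00417% to 0.0114% and stood between rank 2103 and rank 5532. Within D2.1, the 3 group means (2130 ± 385 (SD, n = 3), 2540 ± 356 (SD, n = 4) and 2570 ± 420 (SD, n = 5) CPM in culture, BALB/c and SCID-beige) were within the spread of the libraries. Within D2A1, culture stood at 95.6 ± 37.6 CPM (SD, n = 3), with replicate 3 alone among the tumor values, and the tumors at 56.0 ± 8.96 (SD, n = 4) and 48.6 ± 8.49 CPM (SD, n = 5).

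The high Trp53 counts did not extend to its processed pseudogene or to the gene that begins beside it. Trp53-ps had 0 counts in 21 of the 24 libraries and at most 7 in the others. Wrap53, which encodes a telomerase and Cajal body protein and is transcribed in the opposite direction from a start 0.104 kb away, was at 12.3 to 26.7 CPM in all libraries. Its log2 difference between the lines was -0.09 in culture, -0.24 in BALB/c mice and -0.05 in SCID-beige mice (adjusted p = 0.67, 0.40 and 0.87, quasi-likelihood test of edgeR, adjusted over all genes tested by Benjamini-Hochberg). The next tested starts on either side were those of Efnb3 (20.2 kb) and Atp1b2 (25.6 kb). Efnb3 was higher in D2.1 by 1.05, 1.22 and 1.08 in the same order (adjusted p = 0.019, 0.016 and 0.019, edgeR). Atp1b2 stood at 3.17, 0.09 and 0.25 (adjusted p = 0.0078, 0.90 and 0.72, edgeR). Within 500 kb of Trp53, a window chosen after the values had been seen, there were 63 protein-coding genes. Of these, 18 were higher and 7 lower in D2.1 among 42 tested in culture (59.5%). This stands beside 44.9% of all genes, 24.2% higher and 20.7% lower. Among 47 tested, 7 were higher and 7 lower in BALB/c mice (29.8%, beside 32.6%), and 8 higher and 8 lower in SCID-beige mice (34%, beside 32.1%). The neighbors named next, in both directions, were chosen after their values had been seen. Kcnab3, a potassium channel subunit gene 254 kb away, was higher in D2.1 by 2.23, 3.84 and 4.21 on the log2 scale in the same order (adjusted p = 0.0015, 1.4e-04 and 1.4e-04, edgeR). Tnfsf12, which encodes the cytokine TWEAK and starts 115 kb away, was higher by 5.30, 2.24 and 2.12 (adjusted p = 1.3e-04, 3.2e-04 and 3.7e-05, edgeR). In the other direction, Chrnb1, an acetylcholine receptor subunit gene, was lower in D2.1, at -1.10, -2.54 and -1.82 (adjusted p = 0.0025, 1.8e-05 and 1.2e-05, edgeR). Tmem102, 225 kb away, was also lower, at -2.66, -2.33 and -2.96 (adjusted p = 3.3e-04, 0.029 and 0.0054, edgeR).

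**Figure D2:**
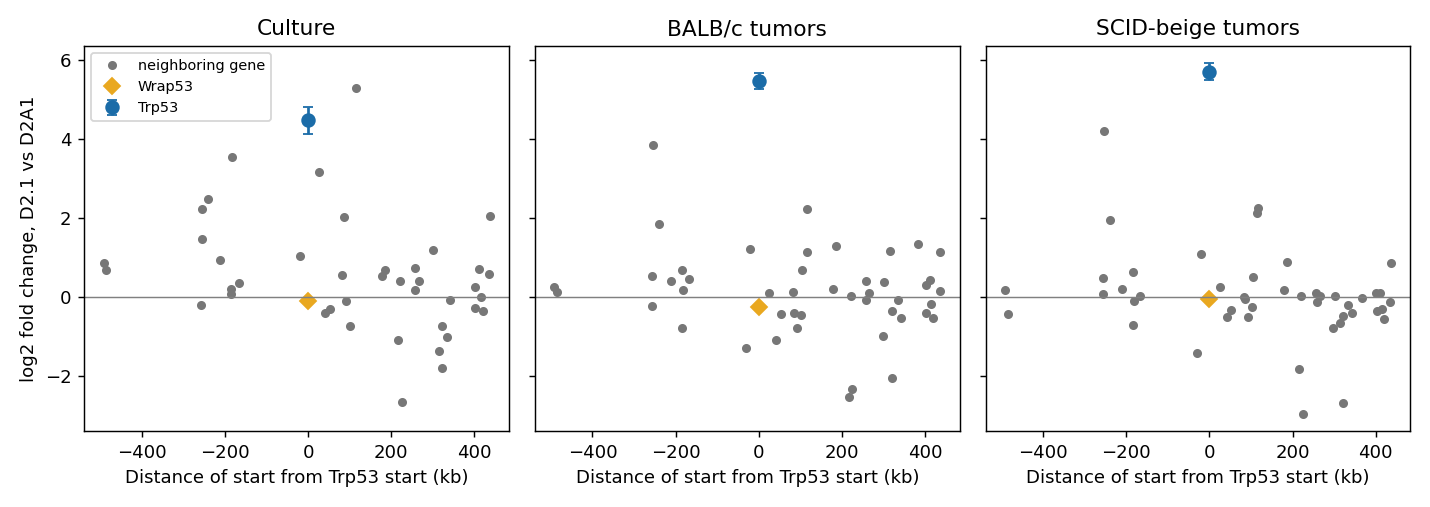
Log2 difference of D2.1 from D2A1 for protein-coding genes within 500 kb of Trp53, against the distance of their starts from the Trp53 start in kb, in a panel for each setting. Trp53 stands at 4.48, 5.48 and 5.71, and Wrap53 beside it near 0.

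The 9 targets went in both directions between the lines. Counting Trp53, 4 of the 10 members were called higher and 1 lower in culture, where 44.9% of all 12489 genes tested were called (24.2% higher and 20.7% lower). The members called were 3 higher and 1 lower among BALB/c tumors, against 32.6% of 14953 genes (16.8% higher and 15.8% lower). They were 2 higher and 2 lower among SCID-beige tumors, against 32.1% of 14355 genes (17.2% higher and 14.8% lower). All 10 passed the filter on low counts in each comparison. A gene was called at an adjusted p of 0.05 by edgeR. Groups did not overlap for 4 members in culture (55.6% of genes tested), 5 in BALB/c mice (34.4%) and 2 in SCID-beige mice (24%). The median log2 difference of the 10 members was 0.37, 0.01 and 0.13 in the same order, beside -0.02, -0.02 and 0.02 over all genes tested.

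The culture count was the least settled of these. It was 2 without D2.1 replicate 2, and also 2 without D2A1 replicate 1 or without D2A1 replicate 2. These fits called 4375 to 4542 genes in all, against 5602 in the main fit. The count of members was 8 when libraries of the same number were treated as a block, where 7539 of 12489 genes were called. It was also 8 without replicate 3 of both lines, where 7810 of 12621 genes were called. With the block in BALB/c mice, 6 members were called instead of 4, and 7116 of 14953 genes instead of 4868. The members that the block added were Aen, Zmat3 and Trp53inp1 in culture, with blocked log2 differences of 0.38 ± 0.10 (SE), -0.43 ± 0.12 and 1.70 ± 0.31, and Aen and Bax in BALB/c mice, with -0.44 ± 0.13 and -0.92 ± 0.11.

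**Figure D3:**
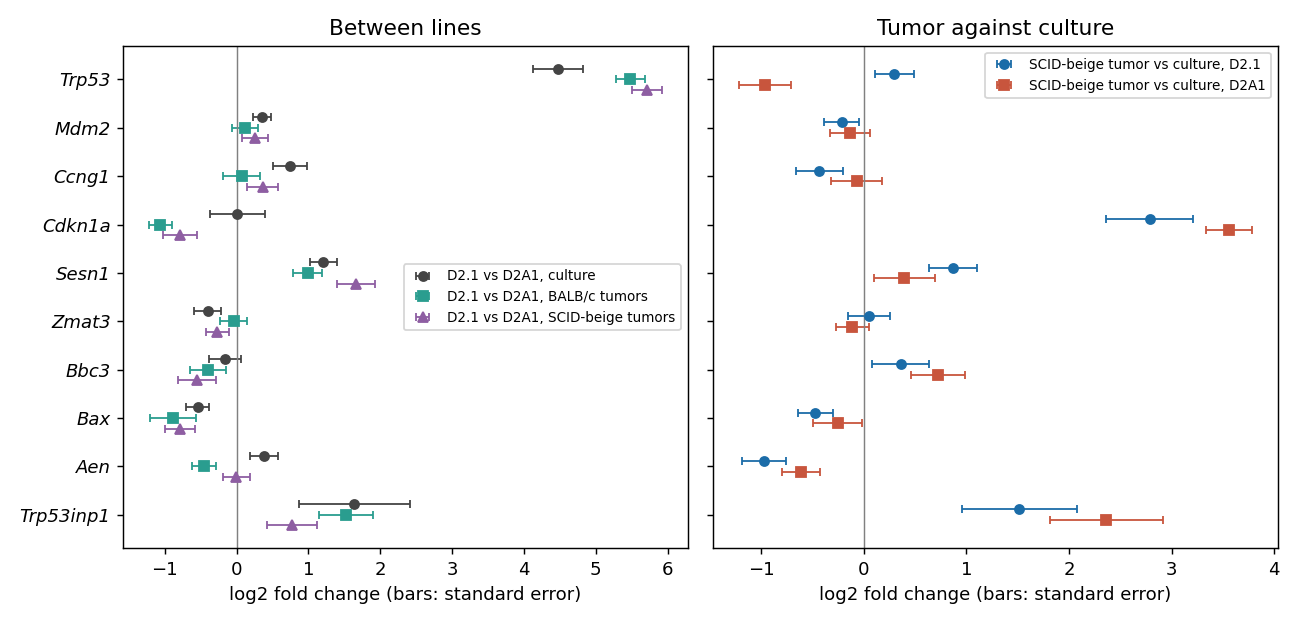
Log2 differences of the 10 members with bars of 1 SE, on the left of D2.1 from D2A1 in culture, BALB/c tumors and SCID-beige tumors, and on the right of SCID-beige tumors from culture in each line. On the left Trp53 stands at 4.48 to 5.71 and the 9 targets lie between -1.06 and 1.67, and on the right Cdkn1a stands highest at 2.79 and 3.56.

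Among the targets that restrain the cell cycle, Cdkn1a (chr17:29090976-29100727), which encodes the cyclin-dependent kinase inhibitor p21 and carries one of the closest matches to the response element printed above, was low in culture and higher in tumors. It was at 12.1, 11.5 and 3.95 CPM in D2.1 cultures and at 10.6, 9.67 and 7.13 CPM in D2A1 cultures. The lines overlapped there. D2.1 tumors had 36.3, 32.0, 38.4 and 43.7 CPM in BALB/c mice and 62.5, 49.2, 79.2, 88.6 and 32.8 CPM in SCID-beige mice. D2A1 tumors had 69.4, 69.3, 90.8 and 78.3 CPM in BALB/c mice and 126, 122, 84.4, 109 and 94.0 CPM in SCID-beige mice. In BALB/c mice every D2A1 tumor lay above every D2.1 tumor, whereas in SCID-beige mice the highest D2.1 tumor lay above the lowest D2A1 tumor. The log2 difference of D2.1 from D2A1 was 0.01 ± 0.38 (SE) in culture, -1.06 ± 0.16 in BALB/c mice and -0.79 ± 0.24 in SCID-beige mice. In tumors the mean p21 transcript was thus lower in D2.1, the line with the higher Trp53 transcript, while in culture the means were 9.17 CPM in D2.1 and 9.14 CPM in D2A1. Cdkn1a shares 273 exon bases (7.68% of its exon length) with a gene model on the opposite strand.

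SCID-beige tumors exceeded cultures in Cdkn1a by 2.79 ± 0.42 (SE) on the log2 scale for D2.1 (6.9-fold) and by 3.56 ± 0.22 for D2A1 (11.8-fold), and every tumor lay above every culture. This contrast is between whole tissue and cultured cells. The leukocyte and fibroblast markers given above moved with it, and their part in the result was not tested. Cultures and tumors also came in separate tables. In every comparison of tumors with culture here, growth condition thus cannot be told apart from any difference in collection, library batch or processing. Over the same comparisons 5 of 10 members were called in D2.1 (3 higher and 2 lower in tumors), against 53.1% of all genes tested (30.8% higher and 22.3% lower). In D2A1 5 of 10 were called (3 higher and 2 lower), against 58.0% of all genes tested (33.5% higher and 24.5% lower). Groups did not overlap for 3 members in D2.1 (51.7% of genes tested) and 2 in D2A1 (56.8%). The called count fell to 3 in D2.1 without culture replicate 1, culture replicate 2, SCID-beige tumor 3 or SCID-beige tumor 5. In D2A1 it fell to 3 without culture replicate 1 or culture replicate 2. Over all genes these fits called 5903 to 7524 in D2.1, and 6746 and 6834 in D2A1.

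Ccng1 (chr11:40748552-40755311, minus strand) encodes cyclin G1, which recruits a phosphatase to Mdm2. It stood at 74.6, 102 and 115 CPM in D2.1 cultures and at 47.2, 47.5 and 78.9 CPM in D2A1 cultures. The lowest D2.1 culture lay under the highest D2A1 culture, and the log2 difference was 0.75 ± 0.24 (SE). BALB/c tumors had 45.0 to 89.2 CPM in D2.1 and 44.8 to 74.6 CPM in D2A1, and SCID-beige tumors had 51.2 to 93.0 CPM in D2.1 and 35.6 to 70.5 CPM in D2A1. The lines overlapped in both hosts, with log2 differences of 0.07 ± 0.26 in BALB/c mice and 0.37 ± 0.22 in SCID-beige mice.

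Sesn1 (chr10:41809935-41908424) encodes sestrin 1, which curbs oxidative stress and mTORC1 signaling, and was higher in D2.1 in each setting. D2.1 cultures had 24.6, 20.8 and 29.0 CPM and D2A1 cultures had 9.57, 10.1 and 12.6 CPM. D2.1 tumors had 38.9, 51.9, 33.6 and 34.2 CPM in BALB/c mice and 37.5, 46.6, 62.5, 32.2 and 43.1 CPM in SCID-beige mice. D2A1 tumors had 20.2, 15.7, 20.1 and 22.7 CPM in BALB/c mice and 6.78, 12.3, 19, 16.8 and 15.2 CPM in SCID-beige mice. Sesn1 was the sole target of the 9 for which no D2.1 library lay at or below any D2A1 library of the same setting. The log2 difference was 1.21 ± 0.19 (SE) in culture, 0.99 ± 0.20 in BALB/c mice and 1.67 ± 0.26 in SCID-beige mice, beside 4.48, 5.48 and 5.71 for Trp53.

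Zmat3 (chr3:32334792-32366014, minus strand) encodes a zinc finger protein that binds RNA and regulates splicing. It varied over 38.9 to 65.7 CPM in culture and 34.0 to 70.6 CPM in tumors, and the lines overlapped in each setting. Its log2 difference was -0.40 ± 0.19 (SE), -0.04 ± 0.19 and -0.27 ± 0.16 in culture, BALB/c and SCID-beige mice.

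Of the targets that promote apoptosis, Bax was lower in D2.1 on average in each setting. Bax (chr7:45461697-45466898, minus strand) encodes the pore-forming protein of the outer mitochondrial membrane. It was at 81.3, 57.9 and 75.1 CPM in D2.1 cultures and at 110, 112 and 89.7 CPM in D2A1 cultures, without overlap. D2.1 tumors from BALB/c mice had 31.4, 29.1, 69.6 and 51.7 CPM and the D2A1 tumors there had 65.6, 53.3, 111 and 99.7 CPM. In SCID-beige mice, D2.1 tumors had 54.5, 59.9, 50.9, 48.7 and 38.8 CPM and D2A1 tumors had 96.4, 128, 77.3, 74.1 and 55.6 CPM. The lines overlapped in both hosts. The log2 difference was -0.54 ± 0.16 (SE) in culture, -0.88 ± 0.32 in BALB/c mice and -0.78 ± 0.21 in SCID-beige mice. Within the 4 same-numbered pairs of BALB/c tumors the D2.1 tumor had the lower value each time, and with the block the difference there was -0.92 ± 0.11. The labels do not state that tumors of the same number belong together, so this rests on an assumed pairing. Bax shares 192 exon bases (12.2% of its exon length) with the gene model Gm45808 on the same strand, so its count depends on how shared reads were assigned.

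Bbc3 (chr7:16308393-16318205), which encodes the BH3-only protein Puma, was at 10.7 to 18.5 CPM in culture and 12.2 to 38.6 CPM in tumors. Its lines overlapped in each setting, and its log2 difference was -0.16 ± 0.22 (SE), -0.39 ± 0.25 and -0.55 ± 0.26 in culture, BALB/c and SCID-beige mice. Aen (chr7:78895854-78911209), which encodes an apoptosis-enhancing nuclease, had a lower mean in SCID-beige tumors than in culture in both lines. Its cultures had 87.9, 94.4 and 61.9 CPM in D2.1 and 70.0, 67.9 and 49.3 CPM in D2A1, and the SCID-beige tumors of both lines had 27.7 to 51.2 CPM. The log2 difference of SCID-beige tumors from culture was -0.97 ± 0.22 for D2.1 and -0.61 ± 0.18 for D2A1. In BALB/c mice the D2.1 tumors, at 29.5 to 34.1 CPM, lay below the D2A1 tumors, at 34.7 to 47.6 CPM, with a log2 difference of -0.45 ± 0.16.

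Trp53inp1 (chr4:11156431-11174379) encodes a nuclear protein that promotes p53 phosphorylation and autophagy. It was the lowest target in culture. D2.1 cultures had 2.44, 2.32 and 9.80 CPM and D2A1 cultures had 0.988, 0.426 and 3.19 CPM, with replicate 3 the highest in both lines. D2.1 tumors had 27.7, 33.5, 14.0 and 15.5 CPM in BALB/c mice and 9.75, 11.2, 14.7, 6.62 and 25 CPM in SCID-beige mice. D2A1 tumors had 9.18, 11, 4.15 and 6.41 CPM in BALB/c mice and 4.92, 6.33, 8.76, 7.42 and 12.1 CPM in SCID-beige mice. The lines did not overlap in BALB/c mice alone, where the log2 difference was 1.53 ± 0.38 (SE). It was 1.64 ± 0.77 in culture and 0.77 ± 0.35 in SCID-beige mice. The log2 difference of SCID-beige tumors from culture was 1.52 ± 0.56 for D2.1 and 2.36 ± 0.55 for D2A1, and without culture replicate 3 it was 2.51 ± 0.54 and 3.48 ± 0.51.

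Mdm2 (chr10:117688875-117710758, minus strand), the negative regulator of p53, differed little between groups. D2.1 cultures had 75.8, 78.4 and 67.1 CPM and D2A1 cultures had 55.6, 55.3 and 62.3 CPM, without overlap. D2.1 tumors from BALB/c mice had 58.9, 58.9, 62.3 and 43.6 CPM and the D2A1 tumors there had 59.9, 53.5, 46.8 and 41.5 CPM. In SCID-beige mice, D2.1 tumors had 63.3, 46.6, 65.1, 72.9 and 63.9 CPM and D2A1 tumors had 43.5, 36.7, 55.9, 61.0 and 62.9 CPM. The lines overlapped in both hosts. The log2 difference was 0.36 ± 0.12 (SE) in culture, 0.12 ± 0.18 in BALB/c mice and 0.26 ± 0.18 in SCID-beige mice. For each 100 CPM of Trp53 there were 1.53 to 3.99 CPM of Mdm2 in D2.1 libraries and 46.9 to 158 in D2A1 libraries, a ratio of counts that is not scaled by gene length.

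**Figure D4:**
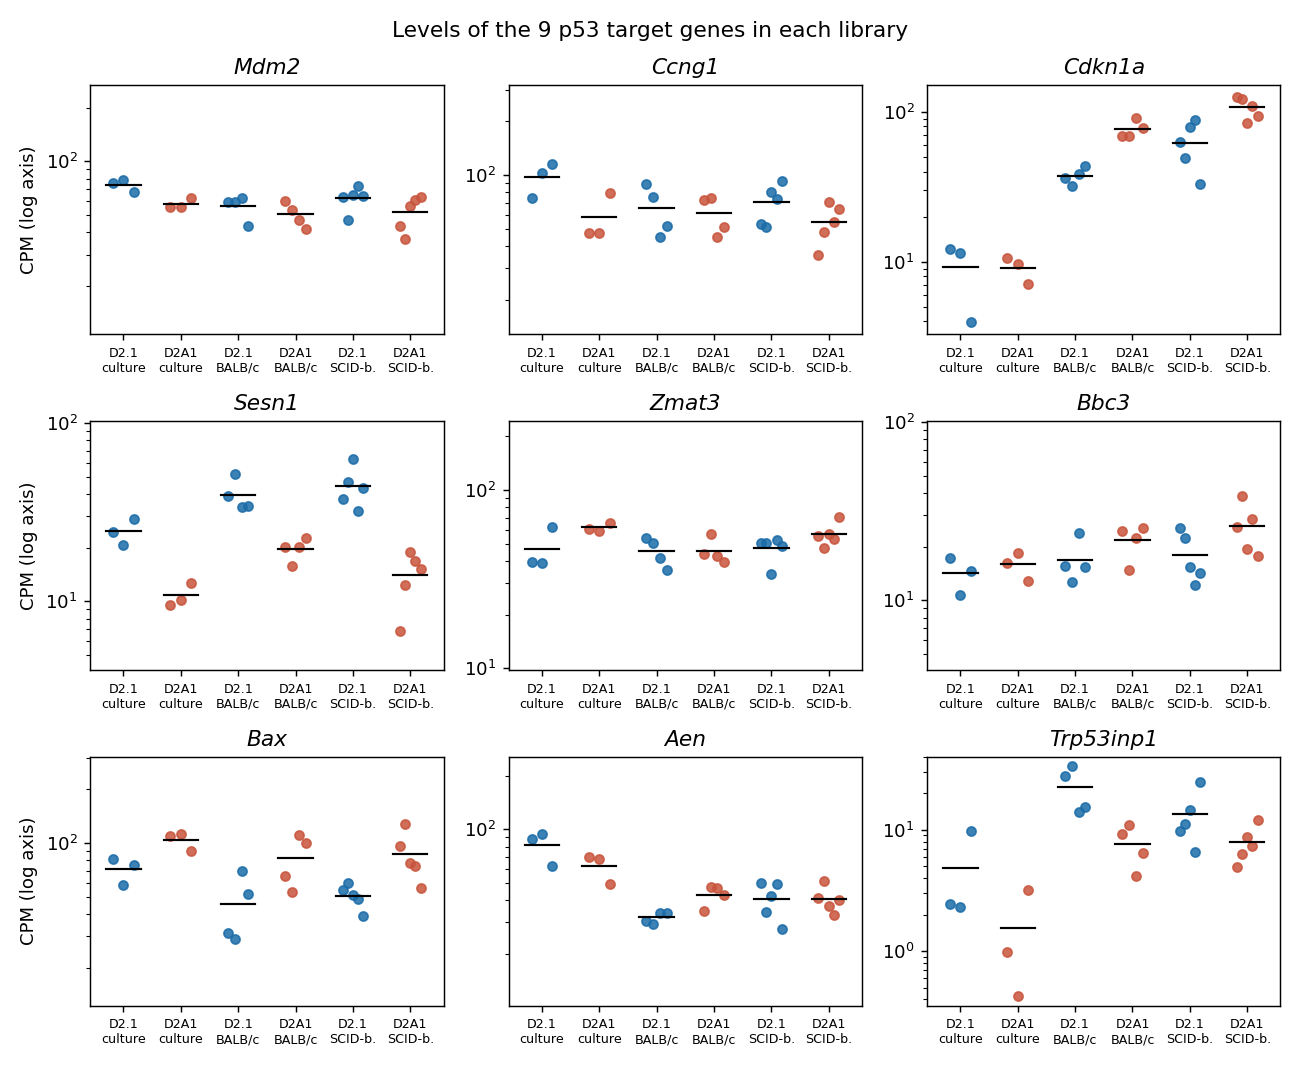
The 9 target genes in each of the 24 libraries, in CPM on logarithmic axes, in a panel for each gene; points are libraries and lines are group means. Cdkn1a lies at 3.95 to 12.1 CPM in culture and 32.0 to 126 CPM in tumors, and Sesn1 is higher in D2.1 than in D2A1 in each setting.

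Per length of gene, which allows levels of different genes to be compared within a table, Trp53 had the highest FPKM of the 10 members in D2.1, with means of 1380 in BALB/c tumors and 1420 in SCID-beige tumors and values of 491 to 629 in the 3 cultures. In D2A1 its mean FPKM in culture, BALB/c and SCID-beige was 28.2, 32.4 and 27.9, and Bax was the highest member at 116, 134 and 139. Trp53inp1 was the lowest member in all 6 groups, at a mean of 0.282 to 6.85 FPKM. The culture and tumor tables divide by different gene lengths, so FPKM values are not set against each other across them.

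Between hosts no member was called. Comparing BALB/c with SCID-beige tumors, 0 of 10 members were called in D2.1 (0.891% of 14929 genes tested were called) and 0 of 10 in D2A1 (1.17% of 14572 genes). At an unadjusted p under 0.05, 1 member passed in each line, beside 1490 of 14929 genes in D2.1 and 1472 of 14572 in D2A1. DESeq2 also called 0 members in both lines, beside 588 of 26678 genes in D2.1, and its total for D2A1 is not given here. Groups did not separate for any of the 10 in either line (4.51% and 5.51% of genes tested did). For Trp53 the log2 difference of BALB/c from SCID-beige tumors was -0.03 ± 0.17 (SE) in D2.1 and 0.18 ± 0.17 in D2A1. For Cdkn1a it was -0.75 ± 0.26 in D2.1 and -0.50 ± 0.16 in D2A1, with the lower mean in BALB/c mice in both lines. In a test of whether the line difference changed with the host, 0 members were called, and 3 of 16036 genes were (0.0187%, with 1355 at an unadjusted p under 0.05 and 92 by DESeq2). That count of genes was 0 without D2.1 BALB/c tumor 3 or 4 or D2A1 BALB/c tumor 1 or 4, 1 without D2.1 SCID-beige tumor 2 or D2A1 BALB/c tumor 3, 8 without D2.1 BALB/c tumor 2 and 12 without D2.1 SCID-beige tumor 4.

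Line differences were also compared between growth conditions, which cannot be told apart from the separate culture and tumor tables. Of 15098 genes tested, 1929 (12.8%) had a line difference in SCID-beige tumors that differed from the one in culture, and 1 of the 10 members, Trp53, was among them. As a description, its line difference in SCID-beige tumors exceeded that in culture by 1.25 ± 0.34 (SE) on the log2 scale. Against culture, Trp53 stood at 0.30 ± 0.19 in D2.1 SCID-beige tumors and at -0.96 ± 0.25 in D2A1 SCID-beige tumors.

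Between libraries of the same group, pairs of members varied in the same and in opposite directions. With group means removed, the correlation (Pearson's r, 24 libraries) over the 45 pairs of members had a median of -0.17 and ran from -0.79 for Ccng1 with Bax to 0.79 for Cdkn1a with Aen, and 19 pairs were positive. Trp53 with the 9 targets ran from -0.66 to 0.47, with a median of -0.28. The libraries also differed in the balance of genes of long and short exon length. A contrast was taken as the median of the 25% of genes with the greatest total exon length minus that of the 25% with the smallest. Each gene was set relative to its mean over all cultures or over all tumors, and the contrast ranged from -0.72 to 0.61 on the log2 scale. With this contrast, again with group means removed, r was -0.91 for Bax, -0.68 for Bbc3, 0.85 for Ccng1, 0.75 for Trp53inp1 and 0.68 for Mdm2. For the other members r was -0.58 for Trp53, -0.49 for Aen, -0.48 for Cdkn1a, 0.54 for Zmat3 and 0.45 for Sesn1. With the contrast as a covariate, 6 members were called between the lines in BALB/c mice and 4 in SCID-beige mice. The same fits called 7658 of 14953 and 5626 of 14355 genes in all. What sets this balance was not tested.

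Over 14039 genes, those whose log2 level was most like that of Trp53 were Mvd, Pax6, Gata3, Ddit4l and Lmo1, each with r = 0.98 over 24 libraries that fall apart by line, so r mostly reflects that split. Those most like the mean of the 9 targets were Tpcn1 (r = 0.71), Pld1 (0.69), Dvl3 (0.66), Mast4 (0.66) and Itpr3 (0.66).

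Beyond the members, a list of 39 further direct p53 targets held genes of several functions, and the largest line differences among them were higher in D2.1. In culture 18 of 35 tested passed (12 higher and 6 lower in D2.1), with a median log2 difference of 0.05 beside -0.02 over all genes. In BALB/c mice 16 of 37 passed (8 higher and 8 lower, median -0.03), and in SCID-beige mice 11 of 37 (6 higher and 5 lower, median -0.06). These shares of 51.4%, 43.2% and 29.7% stand beside 44.9%, 32.6% and 32.1% of all genes. The SCID-beige count was 7 without D2A1 tumor 1, where 4006 of 14736 genes were called. With libraries of the same number as a block, 25 targets passed in culture and 22 in BALB/c mice. These stand beside 7539 of 12489 and 7116 of 14953 genes called by the same fits.

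Eda2r, Sfn and Phlda3 were higher in D2.1 in all 3 settings. Eda2r encodes a receptor of the tumor necrosis factor receptor family that binds ectodysplasin A2. It was at 10.2, 12 and 3.38 CPM in D2.1 cultures and at 0.371, 0.122 and 0.171 CPM in D2A1 cultures, where 2 of the libraries were at or under 3 counts. D2.1 tumors had 8.87 to 35.0 CPM and D2A1 tumors 0.338 to 1.57 CPM over both hosts, without overlap. The log2 difference was 5.24 in culture, 4.28 in BALB/c mice and 4.53 in SCID-beige mice (adjusted p = 2.2e-04, 2.9e-04 and 5.5e-06, edgeR).

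Sfn encodes 14-3-3 sigma, which holds the mitotic kinase in the cytoplasm and is an epithelial gene. It was at 9.92 to 15.7 CPM in D2.1 cultures, 0.627 to 1.16 CPM in D2A1 cultures, 20.9 to 85.8 CPM in D2.1 tumors and 2.89 to 5.52 CPM in D2A1 tumors. The lines did not overlap, with log2 differences of 3.81, 3.81 and 3.52 (adjusted p = 2.3e-05, 5.8e-06 and 1.1e-05, edgeR). The epithelial gene Krt14 was also higher in D2.1 than in D2A1, at 5.50 to 9.61 against 0.114 to 0.926 CPM in culture and 25.5 to 324 against 0.612 to 3.43 CPM in tumors, whereas Krt18 went the other way in tumors, at 9.16 to 168 against 256 to 515 CPM. The part of these markers in the result was not tested. Phlda3, an inhibitor of Akt signaling, was at 147 to 174 CPM in D2.1 cultures and 11.7 to 19.5 CPM in D2A1 cultures. In tumors it was at 85.7 to 189 CPM in D2.1 and 37.3 to 70.5 CPM in D2A1. Its log2 difference was 3.29, 1.82 and 1.08 (adjusted p = 6.1e-06, 1.8e-04 and 5.8e-04, edgeR).

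Other targets were lower in D2.1. In culture, Zfp365, which guards genome stability, Gls2, a glutaminase, Tigar, which lowers glycolytic flux, and Pidd1, the scaffold of the PIDDosome, had log2 differences of -2.94, -2.11, -0.84 and -0.76 (adjusted p = 1.0e-05, 9.4e-05, 5.8e-04 and 0.026, edgeR). Between BALB/c tumors, Dglucy (D-glutamate cyclase), Tnfrsf10b (the TRAIL receptor), Tigar and Epha2 (an ephrin receptor) had -1.62, -1.08, -1.05 and -1.04 (adjusted p = 2.6e-04, 9.2e-04, 0.016 and 0.011, edgeR). In SCID-beige mice, Dglucy, Fbxw7 (a ubiquitin ligase subunit), Tnfrsf10b and Xpc (a DNA damage sensor) had -1.57, -0.82, -0.69 and -0.52 (adjusted p = 2.9e-04, 0.0011, 0.0052 and 0.04, edgeR). The higher genes named by the same rule were Ephx1, an epoxide hydrolase, in culture (2.30, adjusted p = 1.0e-05, edgeR), Ddb2, a repair gene, in BALB/c mice (2.07, adjusted p = 0.041) and Dram1, an autophagy gene, in SCID-beige mice (1.95, adjusted p = 6.1e-04). The call of Ddb2 was lost without D2.1 tumor 4 or without any single D2A1 tumor, and Ddb2 shares 23.8% of its exon bases with Acp2 on the opposite strand. The call of Xpc was lost without any single D2A1 tumor and without D2.1 tumor 1, 3 or 5, and that of Pidd1 without D2.1 replicate 2, D2A1 replicate 1 or D2A1 replicate 2.

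**Figure D5:**
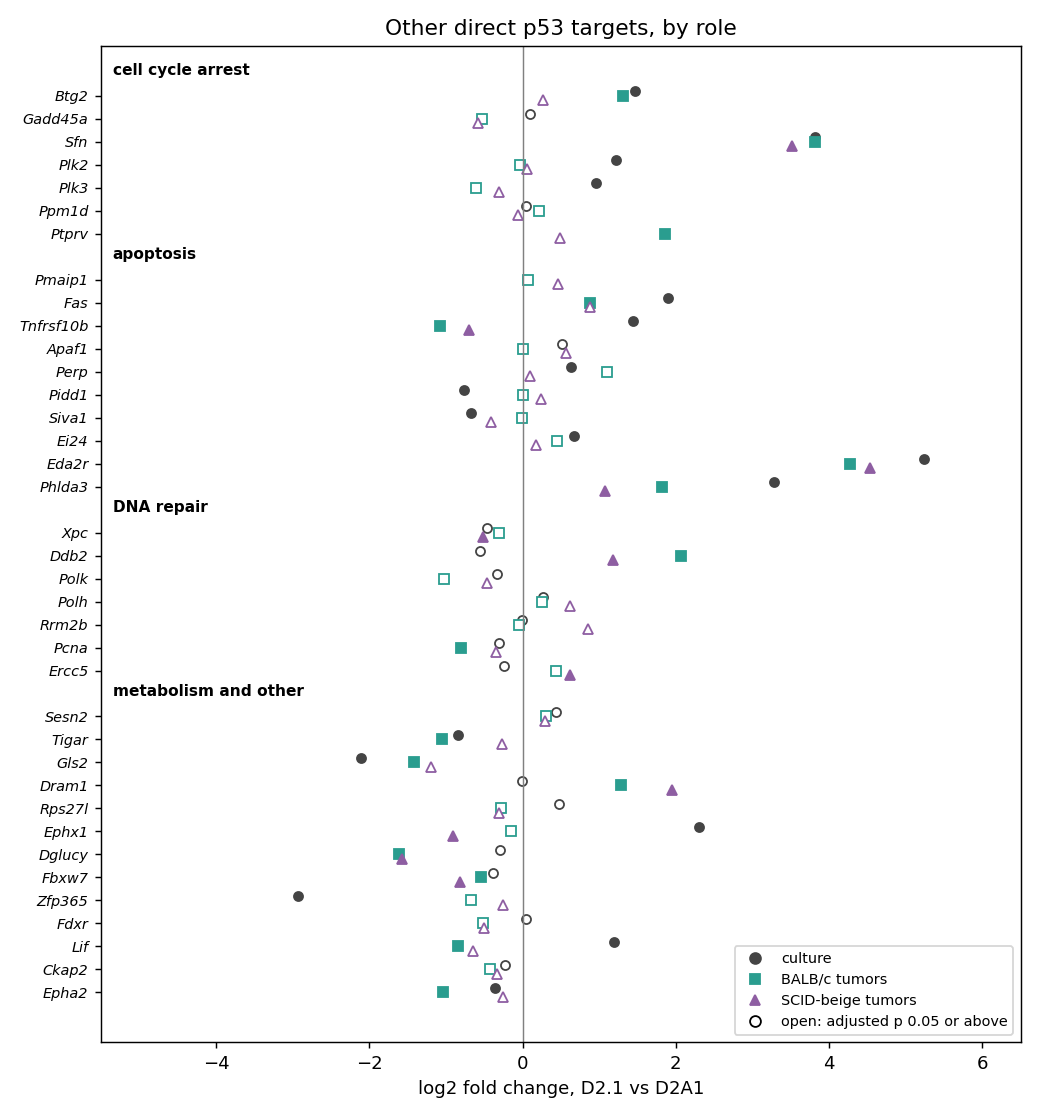
Log2 difference of D2.1 from D2A1 for the further direct p53 targets tested, by role, in culture, BALB/c tumors and SCID-beige tumors; filled points were called by edgeR and open points were not. Eda2r and Sfn stand highest, at 5.24 and 3.81 in culture.

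By role, in culture 4 of 6 cell cycle targets tested and 6 of 9 apoptosis targets were higher in D2.1, with 0 and 2 lower, while 0 of 7 DNA repair targets passed. Of 13 targets of metabolism and other functions, 2 were higher and 4 lower. Between BALB/c tumors, 3 of 7 cell cycle targets were higher and 0 lower, 3 of 10 apoptosis targets were higher and 1 lower, 1 of 7 repair targets was higher and 1 lower, and 1 of 13 in the metabolic group was higher and 6 lower. Between SCID-beige tumors the counts in this order were 1 higher and 0 lower of 7, 2 higher and 1 lower of 10, 2 higher and 1 lower of 7, and 1 higher and 3 lower of 13. Over all genes 44.9%, 32.6% and 32.1% were called in the 3 settings, and no role was tested against these shares.

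Between SCID-beige tumors and culture, 22 of 37 targets passed in D2.1 (59.5%, 8 higher and 14 lower in tumors), beside 53.1% of all genes. In D2A1 25 of 37 passed (67.6%, 14 higher and 11 lower), beside 58.0%. Gadd45a, a stress gene that halts the cycle, was higher in tumors by 1.94 in D2.1 and 2.60 in D2A1 on the log2 scale (adjusted p = 4.4e-04 and 1.7e-06, edgeR). It shares 19.1% of its exon bases with a noncoding gene on the opposite strand. Dram1, Sfn and Sesn2 (a sestrin) were higher in D2.1 tumors by 2.49, 1.81 and 0.74 (adjusted p = 3.2e-04, 0.0044 and 0.011, edgeR). Phlda3, Btg2 (an antiproliferative gene) and Fas (a death receptor) were higher in D2A1 tumors by 1.82, 1.48 and 1.35 (adjusted p = 4.9e-05, 0.0079 and 0.0032, edgeR). Perp, a desmosome gene, was lower in tumors in both lines, at -3.50 in D2.1 and -2.99 in D2A1 (adjusted p = 0.016 and 9.4e-07, edgeR). Lif (a cytokine), Ephx1 and Tnfrsf10b were lower in D2.1 tumors at -2.34, -2.28 and -2.12 (adjusted p = 4.6e-04, 2.6e-04 and 3.9e-06, edgeR). Gls2, Tigar and Zfp365 were lower in D2A1 tumors at -2.70, -2.36 and -1.81 (adjusted p = 3.5e-06, 8.8e-07 and 2.0e-04, edgeR).

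Between hosts 0 of 37 further targets passed in either line by edgeR, beside 0.891% of all genes in D2.1 and 1.17% in D2A1. At an unadjusted p under 0.05, 3 passed in D2.1 and 6 in D2A1, beside 1490 of 14929 and 1472 of 14572 genes. DESeq2 called 1 in D2.1 (588 of 26678 genes in all), and edgeR called 1 there without D2.1 BALB/c tumor 2 (314 of 15330).

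The 16 genes of the DREAM list, which act in mitosis and which p53 represses indirectly, were tested in all comparisons. In BALB/c mice 9 of 16 (56.2%) were lower and 0 higher in D2.1, beside 32.6% of all genes called and 15.8% lower. Their median log2 difference was -0.69, and Mybl2, Cenpa, Aurka and Ccnb1 stood at -1.14, -1.01, -1.0 and -0.87 (adjusted p = 0.0015, 7.7e-04, 8.6e-04 and 0.0014, edgeR). With the replicate block 14 were called there, beside 7116 of 14953 genes, and without D2.1 tumor 1 the count was 6. In SCID-beige mice 3 of 16 were lower (18.8%, beside 32.1% of all genes called; 1 without D2.1 tumor 5 and 6 without D2.1 tumor 4), with a median of -0.24. In culture 6 of 16 passed (37.5%, beside 44.9% of all genes). Of these 5 were lower, Mybl2 most at -1.46 (adjusted p = 0.0026, edgeR), and Ccnb2 was higher at 0.41 (adjusted p = 0.029). That count of 6 was 2 without D2A1 replicate 1 and 3 without D2A1 replicate 2 or any single D2.1 replicate, and the call of Ccnb2 was lost without any single D2A1 replicate and without D2.1 replicate 1 or 3. In SCID-beige tumors against culture, 16 of 16 were called lower in both lines. Over all genes 53.1% were called in D2.1 (22.3% lower) and 58.0% in D2A1 (24.5% lower). The medians of the 16 were -1.42 in D2.1 and -1.34 in D2A1, beside 0.09 and 0.10 over all genes. Host cells in the tumors were part of that comparison too, and their part was not tested. Growth condition and table cannot be told apart there either.

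Of 20 regulators and relatives of p53, 6 of 18 tested passed in culture (3 higher and 3 lower in D2.1), 3 of 19 in BALB/c mice and 2 of 19 in SCID-beige mice (4 without D2.1 tumor 3), and 0 passed between hosts. In the main fit these shares of 33.3%, 15.8% and 10.5% stand beside 44.9%, 32.6% and 32.1% of all genes. With the block the counts were 12 of 18 in culture and 8 of 19 in BALB/c mice, beside 7539 of 12489 and 7116 of 14953 genes. The culture share was then above that of all genes, so nothing is read from these shares. Cdkn2a, whose products p16Ink4a and p19Arf share reads in a gene count, was present at 103 to 318 CPM in all libraries. It was higher in D2.1 cultures by 0.56 (adjusted p = 0.028, edgeR), a call that was lost without any single D2A1 replicate and without D2.1 replicate 1 or 3. Mdm4, which blocks p53 transactivation, was lower in D2.1 cultures, at -0.64 on the log2 scale (adjusted p = 0.0087, edgeR), with 43.0 to 49.2 CPM against 63.3 to 85.3 CPM. Hipk2, a kinase that phosphorylates p53, was higher in D2.1 in culture and in BALB/c mice by 1.33 and 1.32 (adjusted p = 0.0057 and 0.043, edgeR), and the second call was lost without D2.1 tumor 1 or 2 or D2A1 tumor 2, 3 or 4. Chek1, a checkpoint kinase, was lower in D2.1 in the same settings at -0.66 and -1.17 (adjusted p = 0.0089 and 0.0068, edgeR). Ppm1d, the phosphatase Wip1 and itself a p53 target, differed between the cultures by 0.05 (adjusted p = 0.84, edgeR), and was lower in SCID-beige tumors than in culture at -0.60 in D2.1 and -0.52 in D2A1 (adjusted p = 0.016 in both, edgeR). These calls were lost without culture replicate 1 in each line and, in D2.1, without culture replicate 2. Of the paralogs of p53, Trp63 was at 0.181 to 3.08 CPM (3 to 48 counts), and Trp73 had 0 counts in all cultures and at most 1.27 CPM in tumors. In SCID-beige tumors against culture, 9 of 19 passed in D2.1 (1 higher and 8 lower; 4 without culture replicate 2 and 5 without culture replicate 1) and 8 of 19 in D2A1, where all 8 were lower. These shares of 47.4% and 42.1% stand beside 53.1% and 58.0% of all genes.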

How the data were processed

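RNA-seq was measured in 6 culture and 18 tumor libraries, sequenced by Novogene on an Illumina NovaSeq. The authors deposited counts of whole reads for each gene, and FPKM values, which are the same counts scaled for gene length and library total, through Novogene's pipeline or GENAVi. The submitters' processing notes name STAR and mm10, and the counting program, annotation and strand setting are not given in the sources used here. Groups came from the sample labels. Symbols and positions came from GENCODE M21 (GRCm38) through the Ensembl identifiers, and 785 of 35275 and 37 of 54532 identifiers had no symbol (0.0969% and 0.00594% of counts).

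Counts were tested with edgeR 4.0.16 in R 4.3.3 (TMM, filterByExpr, robust quasi-likelihood fit, Benjamini-Hochberg adjusted p at 0.05), each fit holding only the groups compared. Tumor against culture used SCID-beige tumors and the 34519 shared genes, and growth condition and table cannot be told apart in it. Alternatives were DESeq2 1.42.0, its size factors, no filter, a log2 change beyond 1, a single fit of all groups, limma 3.58.1 on log2(FPKM + 1) and log2(FPKM + 0.1) for genes at 0.5 FPKM or more, and leaving out each library. The fits were also run on simulated data with independent replicates and few changed genes. The real data differ from this in both respects, so no result here rests on that run.

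Same-numbered libraries deviated together in culture (r = 0.18 to 0.49, 3 pairs) and in BALB/c mice (0.10 to 0.49, 4 pairs). A replicate block was therefore also fitted, although the labels state no pairing. Replicates were not copies of each other, with chi-square values of 5.2 to 129 per degree of freedom over 38 pairs. Members and lists were chosen with earlier results of these data known. Named list genes are up to 4 of each list per direction with the largest called changes, no overlap between groups and a higher group that averages 5 CPM or more, and the other named regulators and neighbors were chosen after their values were seen.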

Additional observations from a re-analysis of the deposited data

Results flagged for a closer look

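Zmat3 was at 34.0 CPM in D2.1 SCID-beige tumor 3, while the other 4 tumors of that group had 48.8 to 52.7 CPM. This was the sole tumor set apart by Dixon's test in 40 tests of members in groups of 4 or 5, where chance sets apart about 1 in 20 groups.

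Between SCID-beige tumors and culture, the difference of D2.1 from D2A1 changed for 9 of 37 further targets (24.3%, beside 12.8% of all genes) by a test of the interaction itself (edgeR quasi-likelihood test, adjusted over all genes). Of these, 7 were named above. On the log2 scale, as the difference in tumors minus the difference in culture, the change was -3.18 for Ephx1 (adjusted p = 9.8e-05), -2.19 for Phlda3 (6.4e-05), -2.13 for Tnfrsf10b (5e-06), -1.83 for Lif (0.013) and -1.26 for Dglucy (0.024), so that D2.1 stood lower relative to D2A1 in tumors than in culture. The change was 2.69 for Zfp365 (adjusted p = 4.9e-04) and 1.96 for Dram1 (0.010), in the other direction. The remaining targets were Plk2 at -1.15 (adjusted p = 0.03) and Plk3 at -1.25 (0.02), both polo-like kinases, named after their values were seen. Fibroblast and leukocyte markers moved with growth as tumors, and their part in these changes was not tested. Growth condition cannot be told apart from the separate culture and tumor tables in this test.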

How the results depend on the processing

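Each group had 3 to 5 libraries, and a gene that missed the threshold is not shown to be equal between groups. Of 128 counts under other settings, 110 stayed within 1.5 times, and of 150 with a library left out, 131 did. Of 750 alternative log2 differences of the members, 746 moved by less than the spread between replicates. The 4 others were Mdm2 and Sesn1 in culture on log2(FPKM + 1), at 0.22 and 0.89, and Trp53inp1 between tumor and culture without culture replicate 3, at 2.51 and 3.48. Of 1289 alternatives for named list genes, 74 lost the call and 3 gained one, and each kept its direction.

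With libraries paired by number, the replicate block gave 8 members in culture and 6 in BALB/c mice. It gave 6 in SCID-beige mice, where numbers did not pair the tumors by the rule used, and 0 between hosts. Further targets were 25, 22, 15 and 0 in that order. Over all genes the block called 7539 of 12489, 7116 of 14953 and 5310 of 14355 between the lines. Between hosts it called 14 of 14929 genes in D2.1 and 0 of 14572 in D2A1, so the 0 there carries little information. With calls limited to a log2 change beyond 1, members fell to 2 in culture, 2 in SCID-beige mice, 2 in D2.1 tumors against culture and 2 in D2A1, and further targets to 11 in culture and 6 in SCID-beige mice. Over all genes that limit left 2786, 2610, 4867 and 5181 calls in the comparisons given for members. In culture, limma called 3 members on log2(FPKM + 1) and 3 on log2(FPKM + 0.1), beside 5600 and 5624 of 12315 genes. The single fit of all 6 groups called 2, beside 4301 of 15736 genes. Between hosts in D2.1, DESeq2 and the fit without a filter each called 1 further target. For the change of the line difference with the host, 92 genes were called by DESeq2, 6 with its size factors and 7 without a filter. The cause of these differences was not tested.

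Leaving out a library gave 2 to 6 members in culture, 3 to 5 in D2.1 tumors against culture and 3 to 5 in D2A1, 7 to 14 further targets in SCID-beige mice, 0 to 1 between hosts in D2.1, and 0 to 12 genes for the change with the host. The fits with 2 members in culture called 4375 to 4542 genes in all, against 5602 in the main fit. Those with 3 members called 5903 to 7524 genes in D2.1, and 6746 and 6834 in D2A1. The fit with 7 further targets called 4006 of 14736 genes, and the fit with 1 between hosts called 314 of 15330. Nothing is read from these ranges. Chosen after seeing the data were leaving out replicate 3 of both cultures (8 members), D2.1 BALB/c tumors 1 and 4, which carried milk and skin transcripts (10 further targets, 4 members), and a covariate of long against short genes (17 further targets in SCID-beige mice). In that order these fits called 7810 of 12621, 3350 of 15720 and, in SCID-beige mice, 5626 of 14355 genes. The FPKM alternative was not run for tumor against culture, since the tables use different gene lengths.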
